A study of Mus musculus with 7 samples.

Results

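The ncRNAs described here lie in the intergenic interval between *Edn1* and *Phactr1* on mouse chromosome 13. They were taken from the deposited list of *Tbx5*-dependent noncoding loci of the left atrium as the rows whose neighbouring gene names include *Edn1* or *Phactr1*. The rule found 26 of the 1489 loci in the list. All 26 rows gave both names and no other neighbour. The list itself was selected by the authors on a difference in ncRNA level between *Tbx5* knockout and control atria, so dependence on *Tbx5* chose the members and is not a finding about them. The authors then kept loci with a coding gene changed in the same direction within a window of megabases on either side.

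The study sequenced non-polyadenylated RNA from the left atrium of male mice of mixed strain, 6 to 8 weeks old. Ribosomal and polyadenylated RNA had been depleted, and the reads were single-ended, stranded and 50 bases long. There were 3 control and 4 TBX5 -/- libraries. The control mice carried a tamoxifen-inducible Cre (*R26* CreERt2) that is expressed in all tissues, and the knockout mice carried the same Cre with floxed *Tbx5* (*Tbx5* fl/fl), from which exon excision was induced in the adult with tamoxifen. Because the Cre is ubiquitous, a difference in the atrium can originate in any of its cell types. The deposited table is a list of loci with positions, neighbours and a conservation score. It has no value for a single library. For the 26 loci, read depth and variation between mice are therefore unknown, no test of knockout against control was run, and the labelled tissue could not be compared with its marker genes. The number of rows is that of the set higher in the knockout in the study's own accounting, whereas the heading of the linked-gene column carries the abbreviation dn and the file and sheet names are mixed. The direction is therefore uncertain, and no rise or fall in the knockout was assigned to any of the 26 loci.

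TBX5 is a T-box transcription factor that binds enhancers and promoters of cardiomyocytes and is required for atrial rhythm. Active enhancers are commonly transcribed into RNAs that are mostly not polyadenylated and not spliced. *Edn1* encodes preproendothelin-1, the precursor of endothelin-1, a vasoconstrictor peptide that is released mainly by endothelial cells and acts on the G protein-coupled receptors EDNRA and EDNRB on smooth muscle, endothelium and cardiomyocytes. *Phactr1* encodes a phosphatase and actin regulator that binds protein phosphatase 1 and monomeric actin. In humans, the chromosomal region that includes both genes is associated with coronary and other arterial disease. The positions of those associations were not compared with the loci described here.

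Sequence for the loci themselves was not used here, and the promoters of the 2 coding genes at the edges of the interval and of an annotated noncoding gene within it are shown instead. The noncoding gene, *Gm32833*, is a RefSeq lncRNA on the minus strand whose start site falls inside the stretch of listed loci. Its promoter window lies in the gap between the listed loci XLOC_013684 and XLOC_013687. Each sequence is from RefSeq (GRCm38.p6) and is written 5′ to 3′ along the strand of its gene, from 250 bases before the start site. Capitals mark a match, here always on the reverse strand, to a transcription factor form given after the sequences. The *Gm32833* promoter (chr13:42403340-42403639, minus strand) runs to 50 bases past the start site, and the *Edn1* (chr13:42301226-42301505, plus strand) and *Phactr1* (chr13:42680549-42680828, plus strand) promoters to 30 bases past it.
Gm32833: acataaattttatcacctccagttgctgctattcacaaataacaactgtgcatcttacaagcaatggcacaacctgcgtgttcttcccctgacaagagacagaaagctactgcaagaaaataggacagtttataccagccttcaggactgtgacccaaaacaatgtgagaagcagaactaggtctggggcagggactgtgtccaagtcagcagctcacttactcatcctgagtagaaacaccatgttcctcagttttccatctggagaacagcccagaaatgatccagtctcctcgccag
Edn1: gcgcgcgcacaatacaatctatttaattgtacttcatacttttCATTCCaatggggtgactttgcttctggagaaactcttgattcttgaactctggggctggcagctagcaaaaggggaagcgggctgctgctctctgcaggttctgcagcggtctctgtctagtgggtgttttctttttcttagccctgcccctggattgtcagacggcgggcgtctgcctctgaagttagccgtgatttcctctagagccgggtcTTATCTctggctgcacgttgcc
Phactr1: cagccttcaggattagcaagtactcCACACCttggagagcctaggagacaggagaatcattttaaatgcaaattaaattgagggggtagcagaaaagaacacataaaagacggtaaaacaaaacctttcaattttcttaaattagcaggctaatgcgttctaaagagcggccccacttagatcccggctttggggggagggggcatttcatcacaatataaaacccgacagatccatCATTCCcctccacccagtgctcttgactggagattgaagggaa

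No T-box match was found in the promoters of *Gm32833* and *Edn1*, whereas the *Phactr1* promoter held 1 T-box core on its reverse strand, from position -225, counted from the start site. The forms were searched on both strands in the full windows of 300 bases, and the shares given are those of 32851 RefSeq mouse promoters of the same length. The T-box core GGTGTG was present in 19.0% of all promoters. A longer T-box form, with the letters AGGTGTGA, contains that core, was present in 1.28% and was in none of the 3. The GATA form AGATAA, present in 11.2% of promoters, was found once, from position 9 of *Edn1*, where position 1 is the annotated RefSeq start site. Start sites in use in the atrium were not measured. The TEAD form GGAATG, present in 14.7%, was found once in the *Edn1* promoter, from position -207, and once in that of *Phactr1*, from position -13. No NKX form (TNAAGTG, 11.5% of promoters) and no MEF2 form (3.69%) was found in the 3 windows, and neither was the polyadenylation signal AATAAA on the transcribed strand (11.3%). The *Gm32833* window held none of the forms, and its GC content of 46.0% with 2 CpG dinucleotides was below the promoter medians of 52.7% and 7. The *Edn1* window had 51.3% GC and 11 CpG, and the *Phactr1* window 43.7% and 5. *Phactr1* has 3 RefSeq promoters, of which the one nearest to the loci was used. A match is a string of letters and not a binding site.

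The 26 loci formed a compact run, nearer to *Edn1* than to *Phactr1*, in a wide interval free of coding genes. *Edn1* (ENSMUSG00000021367.8, 42301476 to 42307990) and *Phactr1* (ENSMUSG00000054728.16, 42680623 to 43138526) both lie on the plus strand, and the GRCm38 interval between them in GENCODE M21 is 373 kb. The run extended from 42400706 to 42444045, a span of 43.3 kb or 11.6% of the interval. It began 92.7 kb past the 3′ end of *Edn1* and ended 237 kb before the first start site of *Phactr1*. Its centre stood at 30.7% of the way from *Edn1* to *Phactr1*. All 26 loci were on the plus strand, so every one was downstream of *Edn1* and upstream of *Phactr1* in the sense orientation of both genes. The 6 coding transcripts of *Phactr1* have 6 start sites, and the most distant of them was 422 kb past the run.

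**Figure D1:**
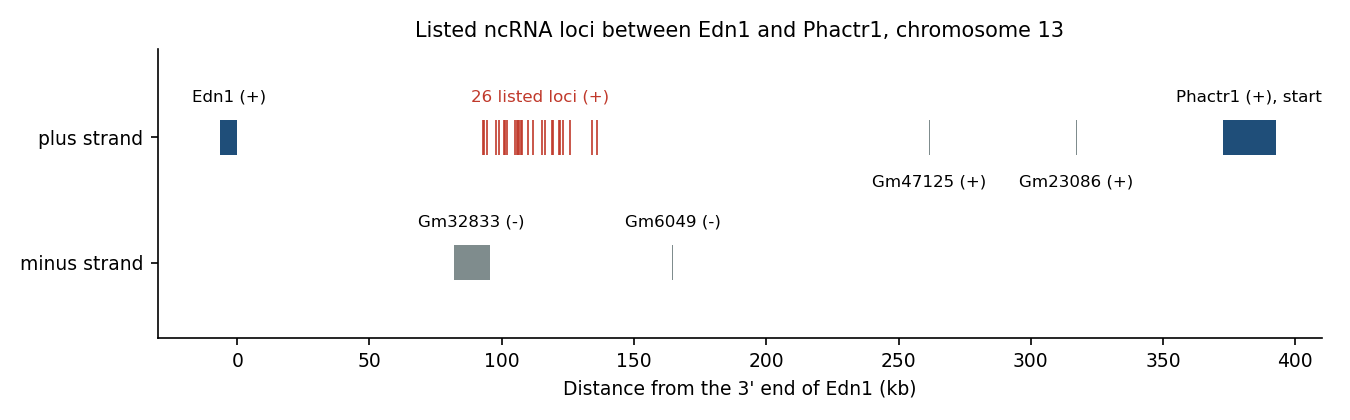
Map of the interval between *Edn1* and *Phactr1* by strand, with distance from the 3′ end of *Edn1* in kb on the horizontal axis. Each red line is the midpoint of 1 listed locus, grey boxes are the noncoding genes and pseudogenes annotated in the interval, and only the first 20 kb of *Phactr1* is drawn. The 26 loci sit together on the plus strand from 92.7 kb, with the minus-strand lncRNA *Gm32833* at their near edge.

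No other listed locus lay near the run. The closest one before it, XLOC_015289, was a minus-strand locus 671 kb away beside *Adtrp*, which encodes a hydrolase of fatty acid esters of hydroxy fatty acids. The closest one after it, XLOC_013756, was a plus-strand locus 4532 kb away. *Hivep1*, a zinc finger transcription factor gene upstream of *Edn1*, had no listed locus, and none lay inside *Edn1* or the 458 kb body of *Phactr1*. The authors selected ncRNAs that they called intergenic, at a distance from coding-gene start sites. Absence from the 2 genes can thus follow in part from that selection and is not a finding. Gene bodies were not barred throughout, since the list has a cluster inside *Creb5*.

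From the *Edn1* side, the run opened with XLOC_013682 (282 bp), XLOC_013683 (133 bp) and XLOC_013684, which at 1094 bp was the longest of the 26. These 3 loci lay over the 5′ part of *Gm32833* and were antisense to it. After a break of 2645 bp came XLOC_013687 (241 bp) and XLOC_013688 (271 bp), and after another of 1620 bp XLOC_013690 (167 bp), XLOC_013691 (177 bp) and XLOC_013692, the shortest of the 26 at 66 bp. The stretch with the most loci followed, with 6 in 3240 bp that covered 63.5% of it. These were XLOC_013696 (572 bp), XLOC_013697 (302 bp), XLOC_013698 (136 bp), XLOC_013699 (322 bp), XLOC_013700 (268 bp) and XLOC_013701 (456 bp), at gaps of 106 to 472 bp.

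Beyond it the loci stood further apart. XLOC_013702 (807 bp) and XLOC_013704 (188 bp) had no other listed locus within 1 kb on either side. XLOC_013706 (274 bp) and XLOC_013707, the second longest at 1056 bp, formed a pair 377 bp apart, and so did XLOC_013708 (83 bp) and XLOC_013709 (150 bp), 193 bp apart. XLOC_013710 (210 bp) and XLOC_013711 (416 bp) had the smallest gap of the run, 87 bp, and XLOC_013712 (417 bp) came 638 bp after them. XLOC_013713 (300 bp), XLOC_013715 (97 bp) and XLOC_013716 (199 bp) closed the run, with the widest gap, 8014 bp, before XLOC_013715. With gaps of at most 1 kb joined, the 26 loci made 12 chains, of which 7 held 2 or more loci and together 21 of the 26. All gaps are between listed loci, and assembled loci outside the list can lie in them.

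**Figure D2:**
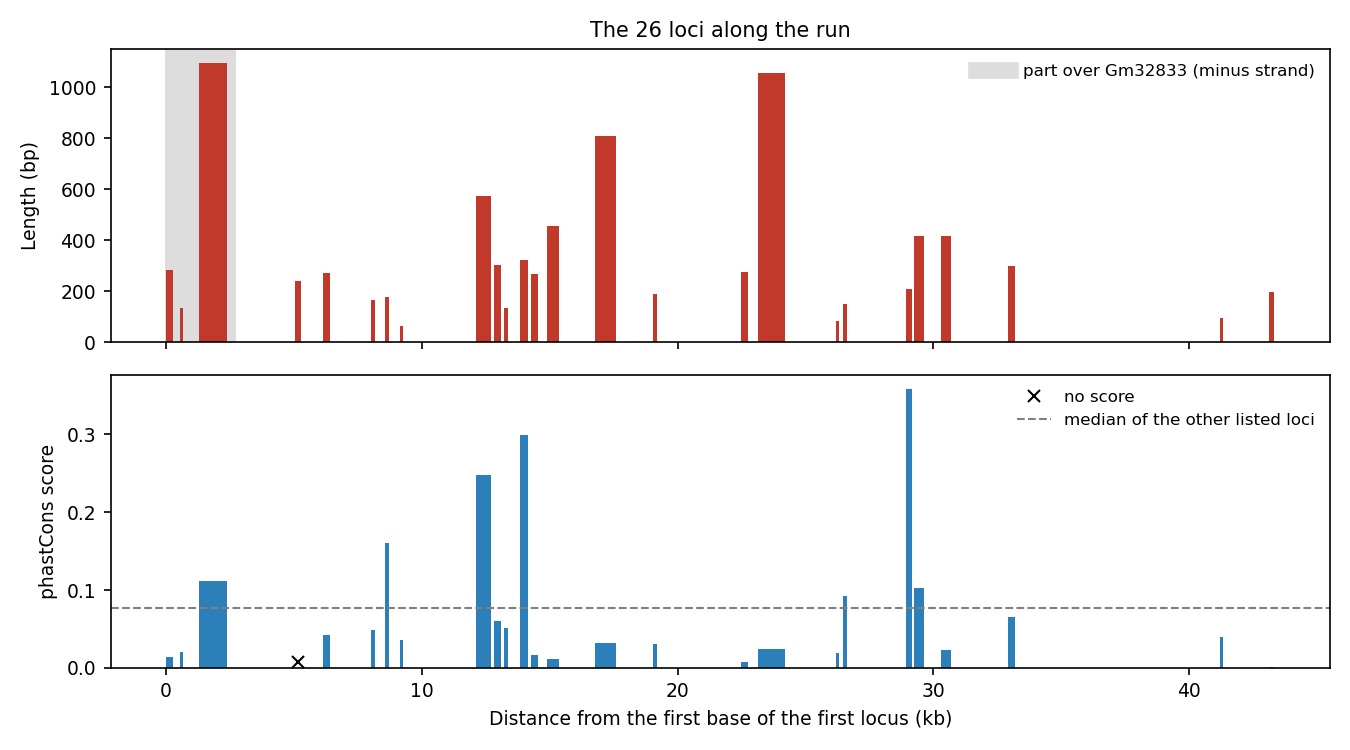
Length in bp (top) and mean phastCons score (bottom) of the 26 loci against distance in kb from the first base of the run, each bar drawn over the bases of its locus. The grey band is the part over *Gm32833*, the dashed line the median score of the other listed loci (0.0774), and the cross the locus with no score. Bars thin out past 33 kb, and the highest scores belong to XLOC_013710 and XLOC_013699.

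Most of the loci lay in the part of the run nearer to *Edn1*. In steps of 10 kb from the first base, 8, 8, 6 and 2 loci began, and the last 2 loci began in the short remainder. The loci covered 24.3%, 30.5% and 21.9% of the first 3 steps but 7.17% of the next and 8.86% of the remainder. Over the whole run they covered 8684 bp, or 20.0%. The median gap between neighbouring listed loci was 638 bp (95% order-statistic interval 376 to 1825 bp, n = 25 gaps). Of the 25 gaps, 5 were at most 200 bp, 14 at most 1 kb and 24 at most 5 kb. Loci on 1 strand at such gaps can be pieces of 1 RNA or separate RNAs, and these cannot be told apart from positions.

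The 26 loci were of middle length, with few very short and no very long ones. Their median length was 269.5 bp (177 to 322 bp, quartiles 169.5 and 392.5 bp, SD 272 bp), and they ranged from 66 to 1094 bp. The other 1463 loci of the list had a median of 195 bp (183 to 205 bp) with quartiles of 115 and 1091.5 bp. Of the 26 loci, 20 (76.9%) were between 100 and 600 bp long, against 52.4% of the others. Spans above 1000 bp were found for 2 of them (7.69%) and for 25.7% of the others. No test was run between the 26 loci and the others, because loci of 1 run are not independent, and the differences are given as descriptions.

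**Figure D3:**
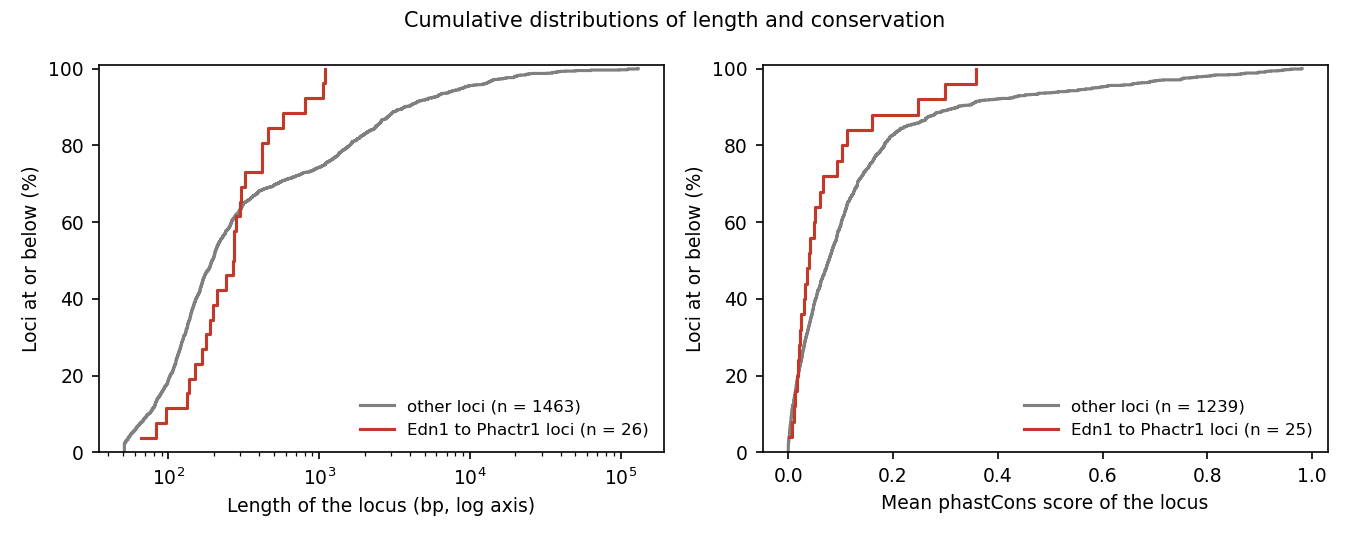
Cumulative share of loci (%) against length in bp on a log axis (left) and against mean phastCons score (right), for the loci between *Edn1* and *Phactr1* (red) and all other listed loci (grey). The red length curve ends at 1094 bp, and the red score curve lies above the grey one over most of its range, since 18 of 25 scores are below the median of the other loci.

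Sequence conservation was low over most of the run, with higher scores at a few loci. A phastCons score is the estimated probability that a base belongs to a conserved element, from 0 to 1, and the table gives its mean over each locus. The median score of the 25 loci with a value was 0.0396 (0.0230 to 0.0656), and that of the 1239 other scored loci was 0.0774 (0.0699 to 0.0840). The intervals treat loci as independent, which loci of 1 run are not, so they do not test the difference. The means were 0.0766 ± 0.0940 (SD, n = 25) and 0.135 ± 0.181 (SD, n = 1239). Of the 25 scores, 18 were below the median of the other loci and 6 were above 0.1, or 24.0% against 40.9% of the others. None exceeded 0.5, against 6.30% of the others. XLOC_013687 had no score, as did 15.3% of the other loci.

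The highest score, 0.359, was that of XLOC_013710 (42429648 to 42429857), which exceeded 91.6% of the scores in the list or equalled them. Its neighbours XLOC_013709 and XLOC_013711 had scores of 0.0928 and 0.103, which are also above the median of the other loci. The second highest, 0.299, was that of XLOC_013699 (42414535 to 42414856), and XLOC_013700, 106 bp past it, had 0.0170. XLOC_013696 (42412823 to 42413394) followed with 0.248, XLOC_013691 with 0.160 and the longest locus, XLOC_013684, with 0.112. Of the 3 highest scores, 2 were thus in the chain of 6 loci, which also held the third lowest score. The lowest scores were 0.00147 at XLOC_013716, the last locus of the run, 0.00724 at XLOC_013706 and 0.0114 at XLOC_013701. The long loci XLOC_013702 and XLOC_013707 had 0.0322 and 0.0248. High and low scores were both found among the 5 longest loci, since XLOC_013696 and XLOC_013684 are among them too. The scores were computed by the authors on mm9 positions. All 26 loci had the same length in both builds and the same shift of 95369 bp between them.

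Annotation of the run was almost empty. The deposited table named no annotated gene for any of the 26 loci, and GENCODE M21 has no gene of any type over the run. In the rest of the interval it has the processed pseudogene *Gm6049*, 28.3 kb past the run on the minus strand, the processed pseudogene *Gm47125* and the predicted microRNA gene *Gm23086*, 125 and 181 kb past it on the plus strand. RefSeq adds *Gm32833* (gene 102635520, 42389899 to 42403389, minus strand, 13.5 kb). It overlapped 3 of the 26 loci (11.5%), all in antisense. Of the 1261 other unannotated loci of the list, 38 (3.01%) were antisense to a RefSeq lncRNA and 93 (7.38%) in sense. The 3 loci are neighbours in 1 chain over 1 gene, so they amount to 1 overlap, and the shares cannot show an excess. XLOC_013684 ended 296 bp before the start site of *Gm32833*, measured along the plus strand, and XLOC_013687 began 2350 bp past it. The other 23 loci were thus on the far side of that start site and pointed away from *Gm32833*. The 2684 bp of the run over *Gm32833* were 56.2% covered by loci, against 17.6% past its start site. The first of these stretches held only 1 chain of loci, whereas the second included the wide gaps between chains. Chains of 2 or more loci past the start site were themselves covered by 34.4% to 77.9%. Whether *Gm32833* is expressed in the atrium was not tested.

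The bidirectional mark of the table was absent from all 26 loci, and 348 of the other loci had it (23.8%). None had an annotated gene, against 13.8% of the others, and none had a linked gene, against 26.2%. If the 26 loci were independent, the exact 95% interval of such a share would reach 13.2%. The approximate upper limit for a count of 0, which is 3 divided by the number of loci, would be 11.5%. The loci share a region, however, and are not independent. A linked gene is an entry in the column for nearby genes changed in the left atrium, and its heading can restrict it to genes of 1 direction. The empty entries therefore do not show that *Edn1* and *Phactr1* are independent of *Tbx5*. Nor do they show that no changed coding gene is nearby, since the authors kept only loci with one in their window. All 26 loci have the same 2 neighbours, so the empty entries amount to 1 observation.

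The numbers that the transcript assembly gave its loci were used to estimate how much of the run entered the list. These numbers rose with position on each strand of each chromosome, in all 1444 neighbouring pairs of listed loci of 1 strand. The run went from number 13682 to 13716, a range of 35 numbers, of which 26 (74.3%, 95% exact binomial interval 56.7% to 87.5%, counting error only) were listed and 9 were not. Missing numbers are read here as assembled loci outside the list, which could not be compared with the full assembly. Of the 9, 3 lay between XLOC_013692 and XLOC_013696 and 2 between XLOC_013684 and XLOC_013687. The others lay singly, 1 each just before XLOC_013690, XLOC_013704, XLOC_013706 and XLOC_013715. On this reading, several of the wider gaps, with the widest among them, hold assembled loci. What set the 9 apart from the listed loci, whether level, difference or a later filter, was not tested. Outside the run, among loci with a strand, 1458 of 55712 numbers, which can include coding genes, were in the list (2.62%). The run was bounded by listed loci and chosen for holding them, so a share above this was fixed in advance. The binomial interval does not cover that choice. Numbers per length were counted too, and the run held 8.08 per 10 kb. The 903 kb of the plus strand before the run, back to the previous listed plus-strand locus, held 10 numbers (0.111 per 10 kb). The 4532 kb after the run, up to the next one, held 39 (0.0861 per 10 kb). These flanks hold no listed locus by definition, so the contrast follows in part from how the run was bounded.

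Among the large clusters of the list, the run had the most loci per length, whereas several others had a similar or lower covered share. Loci at most 10 kb apart form 985 clusters, of which 11 have 10 or more loci. The run had the third most loci of the 11 and the most per 10 kb, 6.00 against 1.02 to 5.33 in the other 10. Its listed share of assembly numbers, 74.3%, was also first, against 33.9% to 68.4%. All 11 clusters are bounded by listed loci, and the counting interval cannot decide whether such shares differ. Its covered share of 20.0% ranked 9, between 22.1% from *Fut10* to *Nrg1* and 10.8% from *Inhba* to *Sugct*, its median length ranked 8 and its median score was second to last, above only that of the cluster between *Fut10* and *Nrg1* (0.0166). The closest listed locus was 671 kb away, which ranked 4 among the 11 from the most isolated. The ranks are descriptions without a test.

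**Figure D4:**
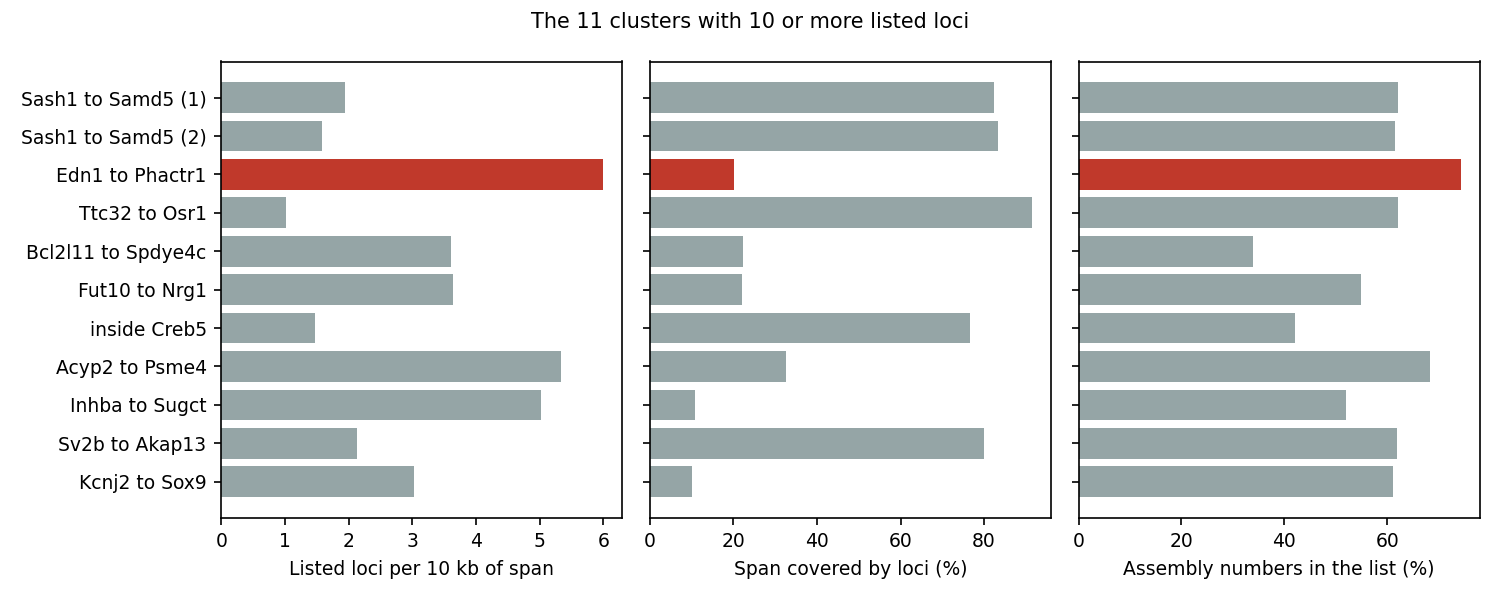
Listed loci per 10 kb of span (left), share of the span covered by loci in % (centre) and share of assembly numbers of the main strand that are in the list in % (right) for the 11 clusters with 10 or more loci, named by the coding genes around them. The cluster between *Edn1* and *Phactr1* (red) has the longest bars for density (6.00) and listed share (74.3%) but a covered share of 20.0%.

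Gaps between coding genes with a similar number of loci differed from this one in how the loci were laid out. By number of loci the *Edn1* to *Phactr1* gap ranked 4 among 748 gaps with a listed locus. The gap from *Bcl2l11* to *Spdye4c* had 27 loci, all on the minus strand, with a median length of 250 bp, but 26 of them overlapped an annotated gene and all 27 were linked. The gap from *Ttc32* to *Osr1* had 29 plus-strand loci with a median length of 4559 bp that covered 210 kb. The gap from *Fut10* to *Nrg1* had 20 minus-strand loci with a median length of 235 bp and a median score of 0.0306, none of them annotated, linked or marked as bidirectional. It thus resembled the *Edn1* to *Phactr1* gap in these measures, although its loci were spread over 105 kb. In each of the 4 gaps all loci were on 1 strand.

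Few other genes in the lists for the endothelin and PHACTR pathways were neighbours of listed loci. Of all 21992 coding gene names in GENCODE M21, 16.8% were neighbours of a listed locus and 1.23% were linked to one, by the symbols in the table, and the counts that follow include *Edn1* and *Phactr1*, which the rule used. Of 12 genes of endothelin signalling, 4 were neighbours of a listed locus. Besides *Edn1* with 26, these were the receptor gene *Ednrb*, with a 51 bp locus 106 kb downstream, and the phospholipase C genes *Plcb1* and *Plcb4*, which share XLOC_033151. That minus-strand locus of 169 bp lay 4.35 kb upstream of *Plcb4*, to which it was linked, and 179 kb downstream of *Plcb1*. *Edn2* and *Edn3*, which encode the other endothelins, *Ednra*, and *Ece1* and *Ece2*, which encode endothelin-converting enzymes, had none. Of 14 genes of the PHACTR family and the actin axis, 4 were neighbours and 0 were linked. *Phactr2* had a 2482 bp minus-strand locus 20.6 kb upstream, in its sense orientation. *Ppp1cb*, which encodes a catalytic subunit of protein phosphatase 1, had 3 loci, the closest 1.17 kb downstream, and *Actb*, which encodes beta-actin, had 2, the closest 32.6 kb upstream. *Phactr3*, *Phactr4*, *Srf* and the genes of its actin-responsive coactivators, *Mrtfa* and *Mrtfb*, had none. The lists are short, each includes a gene that the rule used, and *Plcb1* and *Plcb4* share 1 locus. The counts therefore cannot show an excess over the share of all coding genes, and none was tested.

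Of the 11 coding genes within 1 Mb of the run, 5 were neighbours of a listed locus and 0 were linked, and 2 of the 5 are *Edn1* and *Phactr1* themselves. The others were *Adtrp*, *Tmem170b* and the scaffold protein gene *Nedd9*, 553, 759 and 913 kb before the run. *Hivep1*, 208 kb before it, and *Tbc1d7*, *Gfod1*, *Sirt5*, *Nol7* and *Ranbp9*, 708 to 959 kb after it, had no listed locus. Noncoding loci outside the list examined here were not used.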

How the data were processed

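RNA depleted of polyadenylated transcripts had been sequenced from left atria of 3 control and 4 *Tbx5* knockout mice. The authors trimmed the reads, aligned them to GRCm38 (mm10) with TopHat2 (versions 2.0.10 and 2.0.13 in the submitters' processing notes), assembled transcripts with Cufflinks, counted reads with featureCounts and tested genotypes with DESeq. Positions were lifted to mm9, where the authors averaged phastCons scores over each locus without bases that had no value. Other columns give mm10 positions (1-based), neighbours, a bidirectional mark and linked genes. The 2 deposited tables were identical and were used once. Of 1490 lines, 1 was emptied for this work. No column holds a value of a single library, so p-values were not computed.

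Positions were compared with GENCODE M21 and RefSeq (GRCm38.p6). The assembly matches mm10. Gaps and distances are between closest edges. Clusters join loci at most 10 kb apart and chains at most 1 kb. Shares carry exact binomial and medians order-statistic 95% intervals, which cover counting error only. These intervals treat loci and gaps as independent, which those of 1 run are not. Python 3.11.15, pandas 2.3.3 and scipy 1.17.1 were used, and cluster and interval steps were tested on simulated data. Members to be named were the longest 5, the shortest 3, the first, the last and those with the 3 highest and 3 lowest scores. The others are named for completeness. Comparison gaps were the 3 nearest in number of loci. The members, gene lists and motif forms were chosen with earlier results of these data known.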

Additional observations from a re-analysis of the deposited data

How the results depend on the processing

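Across 11 results, 15 of 19 alternatives left the value within its interval or, for counts, within 1.5 times. Several of these could not have differed, since the loci do not overlap, lie on 1 strand and all carry both gene names. The tally is therefore not a measure of robustness. Taking the members by position between the genes, by both gene names or within 500 kb of either gene gave the same 26 loci. The run is 1 cluster at gaps of 10 and 50 kb, 2 clusters at 5 kb, because of the gap of 8014 bp, and 12 chains at 1 kb. The median length became 461 bp when lengths were summed per chain, by construction. The mean conservation score weighted by length was 0.0804, near the unweighted mean of 0.0766, and both were above the median of 0.0396. The weighted mean was below the same mean over the other loci (0.118). Without the 3 highest scores the median was 0.0340. The summed lengths and the removal of scores were chosen after seeing the data. GC content and T-box forms in the loci were not run, because they need a genome sequence not used here, and no library could be left out. No paired analysis was possible because the table holds no value per library. The depth behind each locus is unknown.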
